A study of Mus musculus with 4 samples.

Results

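The Toll-like receptors of the sorted B cells, the related receptor RP105 (gene *Cd180*), their co-receptors, the chaperone *Unc93b1* and the adaptor *Myd88* were examined in NSD1B WT and NSD1B KO mice. These are the rows whose gene symbol is *Tlr1*, *Tlr2*, *Tlr4*, *Tlr7*, *Tlr9*, *Cd180*, *Ly86*, *Ly96*, *Unc93b1* or *Myd88*, which makes 10 genes of the 55401 counted, and all 10 were found and could be tested. NSD1B WT mice (Mb1-Cre+ NSD1+/+) and NSD1B KO mice (Mb1-Cre+ NSD1fl/fl) both carried Cre under the *Cd79a* (Mb1) promoter, which acts in the B lineage, and only the latter had loxP sites around exons 6 to 8 of *Nsd1*. All were of the C57BL/6J strain, controls were littermates, and the study used mice of both sexes aged 7 to 9 weeks, although neither age nor sex is given for the single libraries. Splenic cells positive for B220, a form of CD45 on B cells, were sorted to a stated purity above 98%, and RNA was sequenced in 2 libraries per genotype, with no stimulation named in the labels. Counts on genes ranged from 6769118 to 7566834 per library. Levels are given as CPM (counts scaled to a common library size) after TMM scaling, which is meant to reduce differences in depth and composition between libraries. The median log2 fold change of all genes tested, NSD1B KO over NSD1B WT, was -0.10 after TMM and -0.18 by library size alone.

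Toll-like receptors recognise microbial products. TLR1, TLR2 and TLR4 sit at the cell surface and bind lipoproteins or lipopolysaccharide, whereas TLR7 and TLR9 sit in endosomes, where UNC93B1 carries them from the endoplasmic reticulum and where they bind RNA and DNA. MD-2, encoded by *Ly96*, is the lipopolysaccharide-binding partner of TLR4, and MD-1, encoded by *Ly86*, is the matching partner of RP105, a TLR4-like receptor without a signalling TIR domain that is abundant on mature B cells. Apart from RP105, these receptors signal through MyD88, and B cells use them to proliferate, to raise costimulatory molecules and to make antibody without T cell help.

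Of the 10 genes, *Tlr4* and *Unc93b1* were higher in NSD1B KO, *Cd180*, *Tlr7* and *Tlr9* were lower, and *Tlr1*, *Tlr2*, *Ly86*, *Ly96* and *Myd88* were not past the threshold. A gene was called with an adjusted p below 0.05 in edgeR's quasi-likelihood test and a fold change above 1.2 in either direction. Thus 5 of 10 (50%) were called, 2 higher and 3 lower, where 78.2% of the 11657 genes tested were called, 37.1% higher and 41.1% lower. The median log2 fold change of the 10 genes was -0.02 and the median of its absolute value 0.40, against -0.10 and 1.16 over all genes tested. The share called and the size of the changes were therefore both below those of the genes at large. In 6 of 10 genes the libraries of the genotypes did not overlap, against 88.1% of the genes tested. These were *Tlr4* and *Unc93b1*, higher in NSD1B KO (41.8% of the genes tested), and *Cd180*, *Tlr7*, *Tlr9* and *Tlr1*, lower (46.2%).

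**Figure D1:**
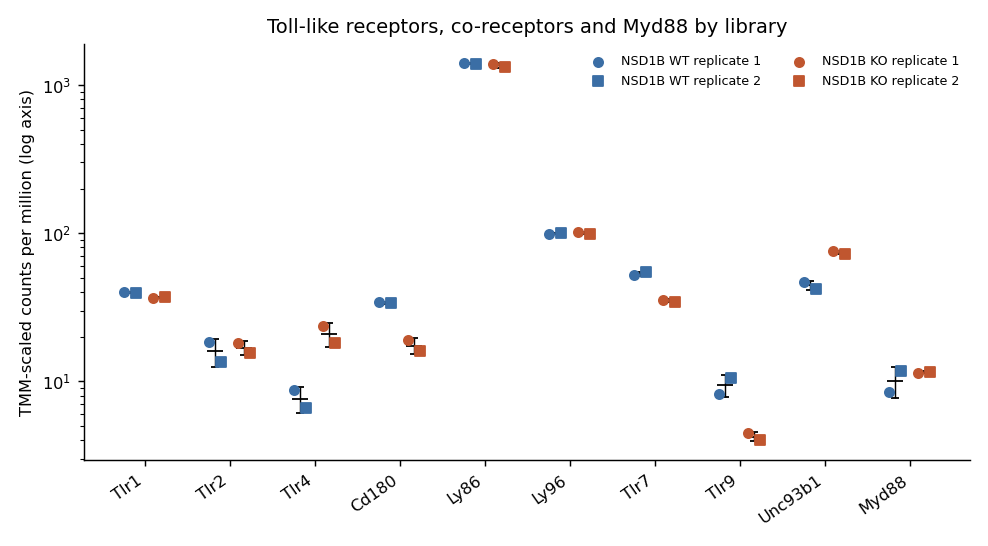
TMM-scaled CPM (log axis) of the 10 genes in each library, with NSD1B WT in blue and NSD1B KO in orange, circles for replicate 1 and squares for replicate 2; the black bars are mean ± SD (n = 2). *Ly86* stands far above the rest in all 4 libraries, the orange points lie above the blue ones in *Tlr4* and *Unc93b1*, and below them in *Cd180*, *Tlr7* and *Tlr9*.

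*Nsd1*, the targeted gene (chromosome 13, 55209782 to 55318325, plus strand, mm10), had 497 and 480 counts in NSD1B WT and 284 and 280 in NSD1B KO, which edgeR put at -0.74 on the log2 scale (adjusted p = 8.08e-08). The counts cover the whole gene, so this checks the labels only in part. Whether replicates were taken from separate mice is not stated, and p-values measure only the spread between these libraries. In bulk RNA, fewer cells of a type and less RNA per cell cannot be told apart. Among the defining markers of B cells, *Cd79b* was at 6871 and 6779 CPM in NSD1B WT and at 8535 and 7783 CPM in NSD1B KO. The summed level of the 8 B cell markers was 12709 to 12936 CPM in NSD1B WT and 11202 to 12210 CPM in NSD1B KO. Most of this sum was *Cd79b*, whereas *Cd79a* fell from 1988 ± 66.4 to 789 ± 30.0 CPM (mean ± SD, n = 2). The sorted cells also held reads of *Lyz2*, the lysozyme gene of macrophages and granulocytes, at 4492 ± 64.2 CPM in NSD1B WT and 5717 ± 247 CPM in NSD1B KO (mean ± SD, n = 2), so the levels below are those of the sorted population and may not be of B cells alone. Of the 8 B cell markers 6 were lower in NSD1B KO, against 41.1% of all genes tested. *Pax5*, the transcription factor that keeps B cell identity, was at 42.9 ± 5.47 CPM in NSD1B WT and 4.39 ± 0.310 CPM in NSD1B KO (mean ± SD, n = 2).

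RP105 is a member of the family that is abundant on mature B cells. *Cd180* (ENSMUSG00000021624.9) lies on the plus strand of chromosome 13 from 102693558 to 102739629. It had 245 and 245 counts in the NSD1B WT libraries and 136 and 107 in the NSD1B KO libraries, or 34.3, 33.5, 18.9 and 15.9 CPM. Both NSD1B KO libraries lay well below both NSD1B WT libraries. The level fell from 33.9 ± 0.546 to 17.4 ± 2.12 CPM (mean ± SD, n = 2), 1.95 times lower, with edgeR giving -0.96 on the log2 scale (standard error 0.16, adjusted p = 4.79e-07). Of the exon sequence of *Cd180*, 182 bp (4.04%) overlap *Mast4* on the opposite strand, and the strand setting of the counting is not given in the sources used here.

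*Ly86* (ENSMUSG00000021423.6; chromosome 13, 37345208 to 37419036, plus strand), the gene of MD-1, was the most abundant of the 10 genes. It was counted 10035 and 10183 times in NSD1B WT and 10036 and 8868 times in NSD1B KO, or 1404, 1393, 1395 and 1318 CPM. The libraries of the genotypes overlapped, and the log2 fold change was -0.04 (95% interval -0.19 to 0.11, adjusted p = 0.593, edgeR). The interval keeps any fold change of *Ly86* between 0.874 and 1.08. Per kilobase of exon, *Ly86* was 50.8 and 51.6 times as high as *Cd180* in the NSD1B WT libraries and 91.6 and 103 times as high in the NSD1B KO libraries. MD-1 transcripts thus exceeded those of its partner in every library, and by more in NSD1B KO.

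*Tlr4* (ENSMUSG00000039005.13; chromosome 4, 66827584 to 66930284, plus strand) had the largest change of the 10 genes. Its counts were 62 and 48 in NSD1B WT and 170 and 122 in NSD1B KO, or 8.68, 6.57, 23.6 and 18.1 CPM. The genotypes did not overlap, and the lower NSD1B KO library was well above the higher NSD1B WT one. The level rose 2.74-fold, from 7.62 ± 1.49 to 20.9 ± 3.88 CPM (mean ± SD, n = 2), or by 1.46 on the log2 scale in edgeR (standard error 0.22, adjusted p = 7.74e-08). Its partner *Ly96* (ENSMUSG00000025779.10; chromosome 1, 16688051 to 16709611, plus strand) had 710, 734, 729 and 667 counts in the same order of libraries, or 99.4, 100.4, 101.3 and 99.1 CPM. The 4 values of *Ly96* lay within a narrow band, with a log2 fold change of 0.01 (95% interval -0.18 to 0.19, adjusted p = 0.962, edgeR).

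The ratio of *Tlr4* to *Cd180* transcripts in the sorted population was therefore different in the genotypes. *Tlr4* stood at 0.205 and 0.159 of the level of *Cd180* per kilobase of exon in NSD1B WT and at 1.01 and 0.925 in NSD1B KO. The ratio of *Ly96* to *Tlr4* per kilobase was 62.3 and 83.2 in NSD1B WT and 23.3 and 29.8 in NSD1B KO. Both ratios were separated without overlap, and in each genotype MD-2 transcripts outnumbered those of TLR4.

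*Cd14*, which hands lipopolysaccharide to TLR4 and is known from monocytes and macrophages, moved with *Tlr4*. It had 4 and 9 counts in NSD1B WT and 71 and 77 in NSD1B KO (log2 fold change 3.54, standard error 0.40, adjusted p = 4.48e-11, edgeR). Other genes of macrophages and monocytes also moved. Of a list of 10, 8 could be tested, and 7 were higher and 1, *Itgam*, lower. Among all genes tested, 37.1% were higher and 41.1% lower. Of the exon sequence of *Itgam*, 68.7% is shared with Gm49368. The summed level of the list was 4606 to 4710 CPM in NSD1B WT and 5891 to 6247 CPM in NSD1B KO. Most of this sum was *Lyz2*. *Csf1r*, the receptor of the macrophage growth factor CSF-1, had 23 and 27 counts in NSD1B WT and 375 and 335 in NSD1B KO, while *Vcam1* and *Fcgr1* had at most 8 counts in any library. The part of these cells in the change of *Tlr4* was not tested.

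*Tlr1* and *Tlr2* encode the chains of a receptor for lipoproteins. *Tlr1* (ENSMUSG00000044827.10; chromosome 5, 64924679 to 64933563, minus strand) had 284 and 287 counts in NSD1B WT and 263 and 249 in NSD1B KO, or 39.7, 39.3, 36.5 and 37.0 CPM. Although the libraries did not overlap, the log2 fold change was -0.10 (95% interval -0.36 to 0.16, adjusted p = 0.468, edgeR). *Tlr2* (ENSMUSG00000027995.10; chromosome 3, 83836272 to 83841767, minus strand) had 131 and 99 counts in NSD1B WT and 130 and 104 in NSD1B KO, or 18.3, 13.5, 18.1 and 15.5 CPM. Here the replicates of a genotype differed more than the genotypes, and the log2 fold change was 0.08 (95% interval -0.32 to 0.47, adjusted p = 0.732, edgeR). *Tlr1* shares sequence with *Tlr6*, its neighbour 18.5 kb away, and 10.3% of the runs of 75 bases in *Tlr1* transcripts also occur in *Tlr6*, so the counts of these genes could be split or lost as not unique.

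Of the endosomal receptors, *Tlr7* (ENSMUSG00000044583.13; chromosome X, 167304929 to 167330558, minus strand), which binds single-stranded RNA, was the more abundant. It had 372 and 398 counts in NSD1B WT and 255 and 231 in NSD1B KO, or 52.1, 54.4, 35.4 and 34.3 CPM. The replicates were close and the genotypes clearly apart. The level fell from 53.3 ± 1.69 to 34.9 ± 0.778 CPM (mean ± SD, n = 2), 1.53 times lower, with edgeR giving -0.61 on the log2 scale (standard error 0.12, adjusted p = 1.42e-05).

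*Tlr9* (ENSMUSG00000045322.10; chromosome 9, 106222598 to 106226883, plus strand), the receptor of unmethylated CpG DNA, had 59 and 77 counts in NSD1B WT and 32 and 27 in NSD1B KO, or 8.26, 10.5, 4.45 and 4.01 CPM. It fell 2.22 times, from 9.39 ± 1.61 to 4.23 ± 0.307 CPM (mean ± SD, n = 2), with edgeR giving -1.15 on the log2 scale (standard error 0.30, adjusted p = 0.000559). This was the lowest count among the genes called, and its 95% interval of -1.75 to -0.55 was the widest. Without NSD1B WT replicate 2, which had the higher count, the log2 fold change was -0.94 and the adjusted p 0.0459.

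*Unc93b1* (ENSMUSG00000036908.17; chromosome 19, 3935186 to 3949340, plus strand) went the other way from the receptors it carries. It had 332 and 308 counts in NSD1B WT and 543 and 489 in NSD1B KO, or 46.5, 42.1, 75.5 and 72.7 CPM. The level rose 1.67-fold, from 44.3 ± 3.06 to 74.1 ± 1.96 CPM (mean ± SD, n = 2), or by 0.74 on the log2 scale in edgeR (standard error 0.11, adjusted p = 3.82e-08). Per kilobase of exon, *Unc93b1* was 1.01 and 0.849 times the sum of *Tlr7* and *Tlr9* in NSD1B WT, and 2.50 and 2.51 times that sum in NSD1B KO. By this measure *Unc93b1* was about level with *Tlr7* plus *Tlr9* in NSD1B WT and above them in NSD1B KO. *Tlr3*, an endosomal receptor, and *Tlr13*, both counted only in NSD1B WT, were left out of the sum. The ratio of *Tlr7* to *Tlr9* per kilobase was 4.89 ± 0.685 in NSD1B WT and 7.04 ± 0.354 in NSD1B KO (mean ± SD, n = 2).

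Plasmacytoid dendritic cells, which carry B220 and are rich in TLR7 and TLR9, were checked by 7 markers. *Siglech*, *Klk1* and *Cox6a2* had no count in any library. *Ccr9* had 3 and 5 counts in NSD1B WT and none in NSD1B KO, while *Bst2* and *Tcf4*, which other cells also use, were higher in NSD1B KO and *Lair1* was not called. The summed level of the list was 153 to 154 CPM in NSD1B WT and 222 to 228 CPM in NSD1B KO, nearly all of it *Bst2* and *Tcf4*. The part of these cells in the changes of *Tlr7* and *Tlr9* was not tested.

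*Myd88* (ENSMUSG00000032508.8; chromosome 9, 119335934 to 119341411, minus strand) is the adaptor shared by these receptors. It had 60 and 86 counts in NSD1B WT and 82 and 78 in NSD1B KO, or 8.40, 11.8, 11.4 and 11.6 CPM. The NSD1B KO values fell inside the range of the NSD1B WT values, and the log2 fold change was 0.19 (95% interval -0.29 to 0.67, adjusted p = 0.473, edgeR). At this depth a fold change of up to 1.59 cannot be set aside. Of its exon sequence, 290 bp (11.3%) overlap *Acaa1a* on the opposite strand.

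**Figure D2:**
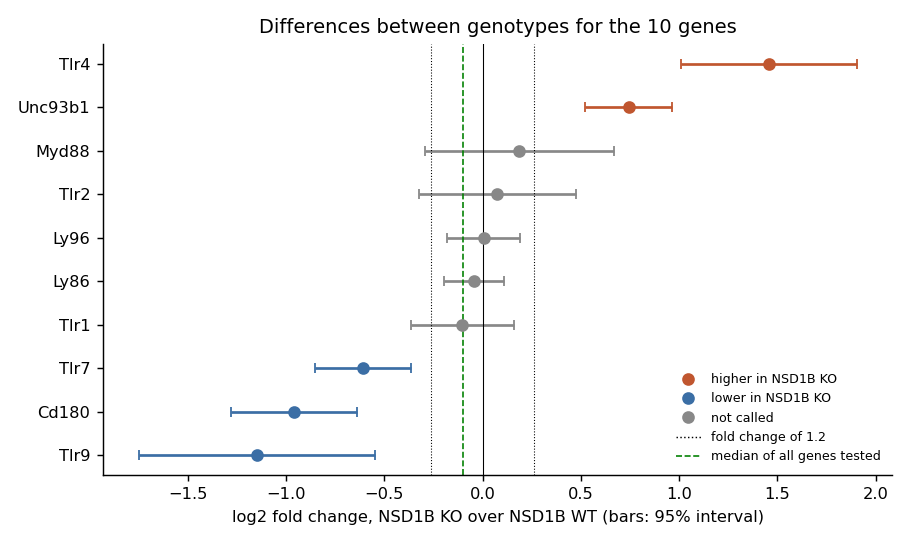
Log2 fold change of NSD1B KO over NSD1B WT for the 10 genes from edgeR, with 95% intervals; dotted lines mark a fold change of 1.2 and the dashed line the median of all genes tested (-0.10). The intervals of *Tlr4* and *Unc93b1* lie to the right of the dotted lines, those of *Tlr7*, *Cd180* and *Tlr9* to the left, and the other 5 include 0.

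**Figure D3:**
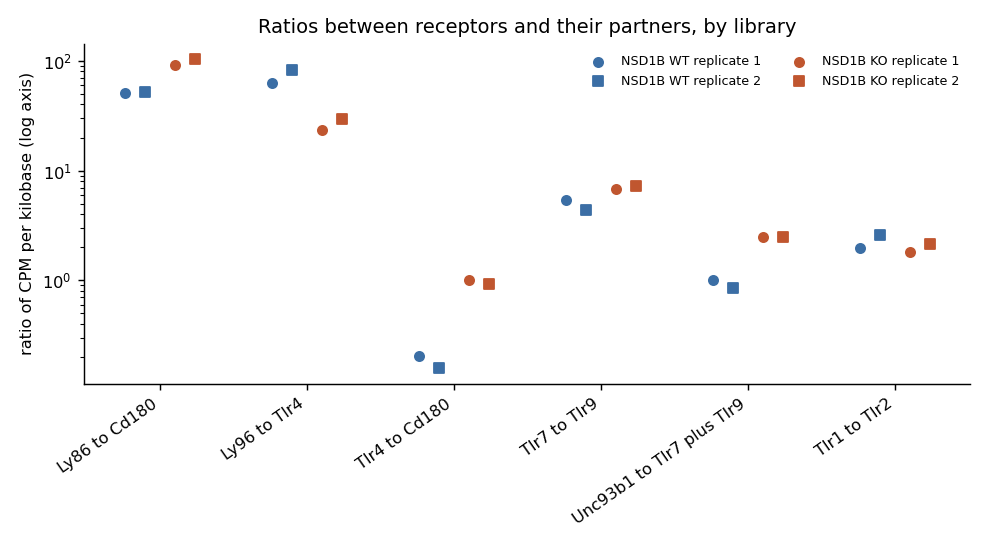
Ratios of CPM per kilobase of exon between receptors and partners in each library (log axis), NSD1B WT in blue and NSD1B KO in orange, circles for replicate 1 and squares for replicate 2. All but the ratio of *Tlr1* to *Tlr2* are separated by genotype, and *Tlr4* to *Cd180* moves most, from 0.182 to 0.970 on average.

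Levels of different genes were compared per kilobase of exon. In NSD1B WT the order was *Ly86* (385 ± 2.21 CPM per kilobase, mean ± SD, n = 2), *Ly96* (97.8 ± 0.725), *Unc93b1* (14.6 ± 1.01), *Tlr7* (13.0 ± 0.413), *Tlr1* (11.8 ± 0.102), *Cd180* (7.52 ± 0.121), *Tlr2* (5.29 ± 1.12), *Myd88* (3.91 ± 0.924), *Tlr9* (2.70 ± 0.463) and *Tlr4* (1.37 ± 0.269). *Tlr2* and *Myd88* were the only neighbours in this order whose libraries overlapped. In NSD1B KO *Tlr1* (11.0 ± 0.098) stood before *Tlr7* (8.55 ± 0.191), *Cd180* (3.86 ± 0.470) came after *Tlr2* (5.56 ± 0.612) and *Myd88* (4.46 ± 0.055), and *Tlr9* (1.22 ± 0.088) came last. *Cd180* and *Tlr4* (3.76 ± 0.699) were the only neighbours that overlapped there. Both co-receptors stood above every receptor in both genotypes.

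By sequence, the stretches before the transcription start were compared for the genes held by the set of RefSeq promoters used here (GRCm38.p6). These were 6 of the 10: *Tlr1*, *Tlr2*, *Tlr9*, *Cd180*, *Ly86* and *Myd88*. The 250 bases before the start of *Cd180* and *Tlr9*, which fell, and of *Tlr1*, which was not called, are shown 5′ to 3′, with the letters of any motif found in capitals. They lie at chr13:102693308-102693557 (plus strand), chr9:106222348-106222597 (plus strand) and chr5:64933559-64933808 (minus strand).
Cd180: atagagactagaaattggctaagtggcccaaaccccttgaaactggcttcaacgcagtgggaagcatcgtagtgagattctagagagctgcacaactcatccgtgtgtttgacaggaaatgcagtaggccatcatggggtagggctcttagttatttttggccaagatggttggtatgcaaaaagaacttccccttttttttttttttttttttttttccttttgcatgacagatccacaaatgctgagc
Tlr9: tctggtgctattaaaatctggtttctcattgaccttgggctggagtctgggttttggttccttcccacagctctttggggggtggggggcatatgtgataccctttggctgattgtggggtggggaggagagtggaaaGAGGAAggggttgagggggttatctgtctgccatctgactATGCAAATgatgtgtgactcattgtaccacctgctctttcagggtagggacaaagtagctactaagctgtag
Tlr1: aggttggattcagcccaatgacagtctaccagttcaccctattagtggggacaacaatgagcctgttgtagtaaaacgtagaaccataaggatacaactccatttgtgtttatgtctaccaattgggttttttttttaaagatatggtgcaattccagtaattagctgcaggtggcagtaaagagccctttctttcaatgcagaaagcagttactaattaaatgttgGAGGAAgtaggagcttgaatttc
These windows were searched on both strands for GAGGAA, the core bound by the myeloid and B cell factor PU.1, for the octamer ATGCAAAT, bound by OCT1 and OCT2, and for the NF-kB consensus. *Tlr9* holds GAGGAA 112 bases and the octamer 72 bases before its start, without overlap, and this start of *Tlr1* holds GAGGAA 23 bases before it. Of the 32851 promoter windows of this length in that set, 23.3% hold GAGGAA and 1.60% the octamer. The NF-kB consensus, held by 7.25%, was found in the window of *Tlr2*, and none of the 3 motifs was found in those of *Cd180*, *Ly86* and *Myd88*.

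The genes whose pattern over the 4 libraries was most like that of *Cd180* were taken by the distance between log2 CPM values, each centred on its own mean, among 7226 other genes with at least 20 counts in every library. The closest were *Haus8* (distance 0.012), *Slc6a6* (0.031), *Prpsap1* (0.039), *Rmnd1* (0.046) and *Prr13* (0.047), with log2 fold changes between -0.99 and -0.95. Of the other 9 genes, *Tlr9* was closest to *Cd180* (0.331), at rank 578, and *Tlr7* next (0.391), at rank 806. With 4 libraries this likeness rests mainly on the difference between genotypes.

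Around these 10 genes, 91 further genes of the pathway were examined in 6 lists, and 72 could be tested. Of these, 26 were higher, 34 were lower and 12 were not called in NSD1B KO, so 83.3% were called against 78.2% of all genes tested. The median log2 fold change was -0.14, and the median of its absolute value 1.30. The 10 genes thus changed less than the genes around them, a description without a test of the difference. Some of these genes were at 0 in both libraries of a genotype, 6 in NSD1B KO and 3 in NSD1B WT, as were 1313 and 890 of all genes tested.

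Of the 7 other Toll-like receptors, 4 were not detected. *Tlr5*, *Tlr8*, *Tlr11* and *Tlr12* had no count, and the 3 that could be tested were lower in NSD1B KO (median -5.00 on the log2 scale with genes at 0 set at their bound). *Tlr3*, the endosomal receptor of double-stranded RNA, had 148 and 140 counts in NSD1B WT and 0 in both NSD1B KO libraries, at least 92.5-fold lower against a limit of 3 counts over the group, and 7.32% of its exon sequence is shared with an antisense gene, Gm45542. *Tlr13*, a receptor of bacterial ribosomal RNA, had 26 and 25 counts in NSD1B WT and 0 in NSD1B KO, at least 16.4-fold lower. *Tlr6*, which pairs with TLR2, had 19 and 22 counts against 1 and 0, a ratio of NSD1B KO to NSD1B WT of 0.0253 (95% counting interval 0.000626 to 0.149).

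Of 16 genes of co-receptors, trafficking and ligand processing, 13 could be tested, of which 6 were higher and 5 lower, with a median log2 fold change of 0.04. Among those needed for endosomal receptors, *Slc15a4*, a lysosomal transporter used by TLR7 and TLR9, fell from 24.1 ± 0.583 to 3.13 ± 1.27 CPM (mean ± SD, n = 2; log2 fold change -2.93, adjusted p = 1.99e-14, edgeR). The gene 5430427O19Rik, which encodes its partner TASL, rose from 72.3 ± 6.15 to 158 ± 6.08 CPM (log2 fold change 1.13, adjusted p = 3.07e-15, edgeR). *Ap3b1*, of the AP-3 adaptor that sorts TLR9, had 158 and 145 counts in NSD1B WT and 0 and 3 in NSD1B KO (ratio 0.0103, 95% counting interval 0.00211 to 0.0303). *Pld4*, a nuclease that trims the DNA seen by TLR9, went from 129.6 ± 2.18 to 35.1 ± 0.666 CPM (adjusted p = 1.68e-21, edgeR), and *Cnpy4* from 23.5 ± 5.39 to 5.04 ± 0.443 CPM (adjusted p = 6.47e-12). The chaperone gene *Cnpy3* (49.1 ± 3.63 and 50.4 ± 1.97 CPM) and *Sdcbp*, the gene of the UNC93B1 partner syntenin-1 (839 ± 1.67 and 771 ± 19.9 CPM), were not called.

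Below the receptors, 22 of 24 adaptors and kinases could be tested, with 9 higher, 10 lower and a median log2 fold change of -0.05. Of the kinases that join MyD88, *Irak1* and *Irak4* fell, while *Irak2* was not called (20.9 ± 1.62 and 26.6 ± 6.35 CPM). *Irak1* went from 46.2 ± 8.94 to 6.42 ± 1.02 CPM (mean ± SD, n = 2; log2 fold change -2.85, adjusted p = 1.20e-18, edgeR) and *Irak4* from 43.6 ± 2.63 to 9.93 ± 2.27 CPM (-2.13, adjusted p = 1.25e-15). *Traf6*, the ubiquitin ligase that follows them, had 298 and 265 counts in NSD1B WT and 0 in both NSD1B KO libraries, at least 181-fold lower.

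The bridging adaptors of TLR4 differed in direction. *Tirap*, which links TLR2 and TLR4 to MyD88, had 0 counts in NSD1B WT and 51 and 38 in NSD1B KO, at least 30.8-fold higher. *Ticam2*, which links TLR4 to TRIF, had 52 and 64 counts in NSD1B WT and 0 in NSD1B KO, at least 37.2-fold lower, and 14.5% of its exon sequence is shared with *Tmed7*. *Peli1* (log2 fold change 2.60, standard error 0.14, adjusted p = 3.21e-22, edgeR) and *Traf3* (2.42, standard error 0.15, adjusted p = 1.85e-19) rose, while *Btk*, the kinase of B cell receptor signalling, fell (-3.48, standard error 0.32, adjusted p = 1.25e-13). *Ube2n* (200.5 ± 6.85 and 228 ± 11.5 CPM, with an adjusted p of 0.0377 in edgeR but a fold change under 1.2) and *Ikbkg* (32.6 ± 3.29 and 26.6 ± 3.41 CPM) were not called.

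Of 17 inhibitors, 15 could be tested, and 4 were higher and 9 lower, with a median log2 fold change of -0.55. *Tnfaip3*, the gene of the deubiquitinase A20, had 0 counts in NSD1B WT and 69 and 77 in NSD1B KO, at least 50.5-fold higher. Its partner *Tnip1* fell (log2 fold change -3.22, standard error 0.25, adjusted p = 3.36e-16, edgeR), as did *Otud7b* (-1.93, standard error 0.19, adjusted p = 1.31e-12). Of the inhibitors of NF-kB, *Nfkbia* fell from 230.3 ± 2.24 to 98.3 ± 3.56 CPM (mean ± SD, n = 2; adjusted p = 1.14e-17, edgeR) and *Nfkbib* rose from 5.68 ± 0.678 to 33.7 ± 0.689 CPM (adjusted p = 4.27e-16), with 14.5% of its exon sequence shared with *Ccer2*. *Irak3* (51.2 and 48.8 CPM in NSD1B WT, 47.0 and 51.3 CPM in NSD1B KO) and *Rnf216* (22.1 ± 1.99 and 23.0 ± 2.62 CPM) were not called.

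Of 11 transcription factors, 10 could be tested, with 5 higher and 2 lower and a median log2 fold change of 0.34. The NF-kB subunits *Relb* (log2 fold change 4.29, standard error 0.37, adjusted p = 1.43e-14, edgeR), *Rela* (2.07, standard error 0.21, adjusted p = 3.95e-12) and *Nfkb1* (1.37, standard error 0.10, adjusted p = 1.62e-17) rose, together with *Nfkbiz* (1.79, standard error 0.22, adjusted p = 4.47e-10). The subunit *Nfkb2* fell, from 10.8 ± 1.93 to 2.96 ± 0.649 CPM (mean ± SD, n = 2; log2 fold change -1.87, adjusted p = 6.54e-07, edgeR). *Irf7*, the interferon factor that acts after TLR7 and TLR9, fell by 0.85 on the log2 scale (standard error 0.22, adjusted p = 0.000501). *Irf3* (23.8 ± 2.45 and 28.3 ± 0.988 CPM) and *Irf5* (25.2 ± 3.34 and 29.7 ± 1.51 CPM) were not called.

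Of 16 genes that Toll-like receptor ligands raise in B cells or macrophages, 9 could be tested, 2 of which were higher and 5 lower, with a median log2 fold change of -0.30. *Il6*, *Tnf*, *Il10*, *Ccl3*, *Ccl4*, *Cxcl10* and *Ier3* had no count in any library. *Cd86*, a costimulatory molecule, rose from 66.3 ± 2.83 to 282 ± 3.97 CPM (mean ± SD, n = 2; log2 fold change 2.09, adjusted p = 1.11e-25, edgeR), whereas its relative *Cd80* fell from 33.4 ± 4.35 to 16.7 ± 0.223 CPM (2.01 times lower, adjusted p = 2.74e-07). The adhesion gene *Icam1* fell (-3.76, standard error 0.20, adjusted p = 5.43e-22), as did *Cd83* (-0.48, standard error 0.08, adjusted p = 4.15e-07), and *Lta* had 30 and 30 counts in NSD1B WT and 0 in NSD1B KO, at least 19.3-fold lower. *Cd69* (735 ± 0.691 and 881 ± 58.4 CPM, with a fold change just under the threshold) and *Plek* (164 ± 9.78 and 147 ± 0.0774 CPM) were not called. Members of each list, apart from the other Toll-like receptors, thus stood on both sides.

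**Figure D4:**
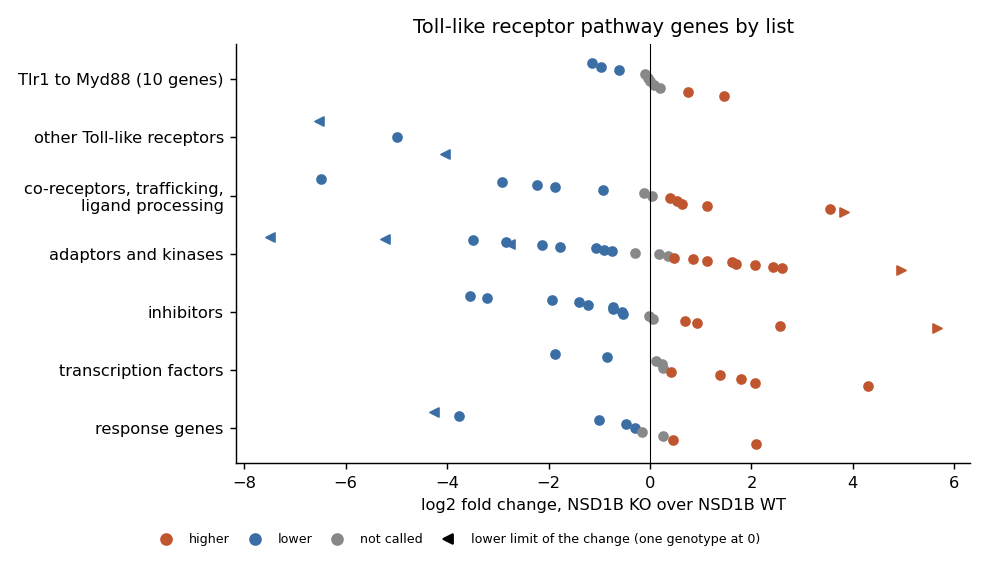
Log2 fold change of NSD1B KO over NSD1B WT for each tested gene of the 6 pathway lists and of the 10 genes, orange where higher, blue where lower and grey where not called; triangles are lower limits for genes at 0 in both libraries of a genotype. The 10 genes lie between -1.15 and 1.46, and genes beyond this span are seen in each of the 6 lists.

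Levels of these receptors differ between B cell subsets, so markers of subsets are given beside them. Of 5 tested marginal zone markers 4 were lower and 1, *Dtx1*, higher, with a summed level of 418 CPM in each NSD1B WT library and 194 to 201 CPM in NSD1B KO. *Cr2*, the gene of CD21, had 304 and 277 counts in NSD1B WT and 17 and 26 in NSD1B KO. Of 3 follicular markers 2 were higher and *Fcer2a*, the gene of CD23, lower (sums of 693 to 694 CPM in NSD1B WT and 978 to 1078 CPM in NSD1B KO). Of 7 tested B1 markers 4 were higher and 2 lower, but their sum fell (835 to 870 and 677 to 704 CPM). Of 3 tested transitional markers 2 were higher and 1 lower (708 to 741 and 598 to 651 CPM). Of 4 tested plasma cell markers 2 were higher and 2 lower (267 to 273 and 230 to 231 CPM). Among all genes tested, 37.1% were higher and 41.1% lower. Among other cell types, all 5 tested red cell genes were higher, with a summed level of 35.6 to 39.6 CPM in NSD1B WT and 1690 to 1944 CPM in NSD1B KO. T cell markers summed to 52.4 to 60.2 CPM in NSD1B WT and 85.3 to 89.2 CPM in NSD1B KO, NK cell markers to 56.5 to 59.9 and 83.2 to 86.4 CPM, conventional dendritic cell markers to 31.2 to 34.6 and 22.3 to 29.7 CPM, and neutrophil markers to 3.83 to 5.46 and 1.81 to 1.93 CPM. *Itgax*, *Flt3*, *Zbtb46*, *Clec9a*, *Cd4*, *Cd8a* and *Ncr1* had no count. The part of any of these cells in the changes of the receptors was not tested.

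**Figure D5:**
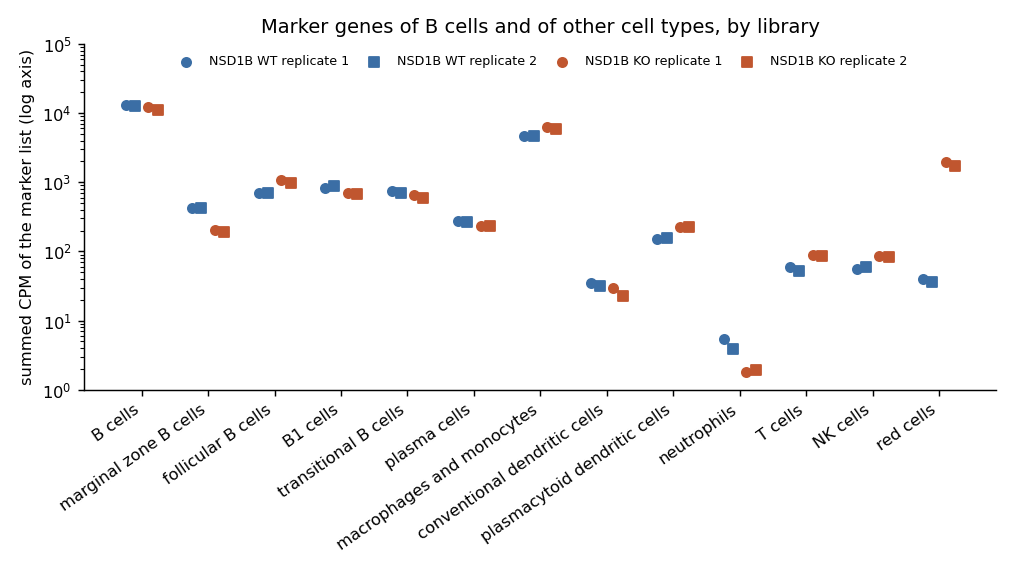
Summed CPM (log axis) of each list of marker genes in each library, NSD1B WT in blue and NSD1B KO in orange, circles for replicate 1 and squares for replicate 2. B cell markers have the highest sums, macrophage and monocyte markers come next in all 4 libraries, and red cell markers differ most between the genotypes.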

How the data were processed

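RNA of B220+ splenic B cells was sequenced in 4 libraries, 2 per genotype, paired-end. The deposited values are raw counts of reads per gene, whole numbers without normalization. Their Methods name mapping to mm10 with Bowtie2 and FPKM from Cufflinks, a unit not used here. Which program counted reads, whether it used strand and which gene annotation it took is not given in the sources used here. Reads on no gene (44.3% to 44.6%), ambiguous reads (2.21% to 2.41%) and reads that were not unique (11.2% to 13.2%) stayed out of the library sizes, which held 6769118 to 7566834 counts. Mitochondrial genes held 7.14% and 7.90% of these counts in NSD1B WT and 8.98% and 9.27% in NSD1B KO.

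Counts were scaled by TMM and tested with edgeR 4.0.16 in R 4.3.3 (quasi-likelihood test, genotype only) on the 11657 genes that passed filterByExpr (minimum count 10, total 15), with Benjamini-Hochberg adjustment over all of them. The standard error was the absolute log2 fold change over the square root of F, and 95% intervals used the t distribution. For a gene at 0 in both libraries of a genotype the fold is a bound, set by 3 counts over that genotype, and one with 1 to 3 counts an exact counting interval. Such limits cover counting error only. An exact permutation test of 2 libraries against 2 cannot reach 0.05 and was not made.

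Positions and exon lengths came from GENCODE M21 (GRCm38, the assembly of mm10), which held 99.5% of the identifiers. Replicates gave a mean chi-square per gene of 3.02 in NSD1B WT and 3.90 in NSD1B KO, where counting error gives about 1, so no library was a copy of another. Alternatives were other scalings, DESeq2 1.42.0, limma-voom (limma 3.58.1), other filters, a stricter threshold, each library left out and the replicate number as a block.

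The 10 genes, the pathway lists and the marker lists were chosen with earlier results of these data known. From each pathway list were named the 4 largest changes among genes called whose mean log2 CPM reached 3, with a count in every library, the 2 most abundant genes not called, and genes at 0 in one genotype with at least 50 counts in the other. *Tlr6*, *Cd14*, *Ap3b1*, *Irak2*, *Irak4*, *Irf7*, *Nfkb2* and single marker genes were named after their values were seen, as were the listed genes with no count.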

Additional observations from a re-analysis of the deposited data

How the results depend on the processing

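The calls of *Tlr4*, *Unc93b1*, *Cd180*, *Tlr7* and *Tlr9* kept their direction and their side of the threshold under all 13 alternatives of the fit, with each library left out, other scalings, DESeq2, limma-voom and other filters among them. The log2 fold change ranged from 1.25 to 1.70 for *Tlr4*, 0.66 to 0.84 for *Unc93b1*, -1.09 to -0.84 for *Cd180*, -0.69 to -0.55 for *Tlr7* and -1.28 to -0.94 for *Tlr9*. The adjusted p was at most 0.00449, 0.00138, 0.00224, 0.00307 and 0.0459 in that order. At an adjusted p under 1e-05 and an absolute log2 fold change over 0.5, 1 gene (*Cd180*) was lower in place of 3, and 2 were higher as before. Small changes turned sign without being called. *Tlr2* was -0.00454 by library size alone and ranged from -0.105 (without NSD1B WT replicate 2) to 0.338 with 1 library left out, with -0.046 without NSD1B KO replicate 1. *Ly96* was -0.0737 by library size alone, -0.0328 by upper quartile scaling and -0.034 with 1 CPM in all 4 libraries, and ranged from -0.0142 (without NSD1B KO replicate 1) to 0.0364 with 1 library left out. With 1 library left out, *Ly86* ranged from -0.089 to 0.00188 (without NSD1B KO replicate 2) and *Myd88* from -0.00268 (without NSD1B WT replicate 1) to 0.476. Over all genes, a filter of 1 CPM in all 4 libraries left 2855 higher and 2991 lower, and 1 count in each library left 3117 lower, both from fewer genes tested. With each library left out, 4122 to 4342 genes were higher and 4356 to 4936 lower. With the replicate number as a block, 4254 genes were higher and 4706 lower, and the same number of the 10 genes were called. Same-numbered libraries deviated together only weakly (Pearson r = 0.0709 across genes, which are not independent replicates). With the longest transcript in place of all exons, the order of levels was unchanged in NSD1B WT, and in NSD1B KO *Cd180* moved from place 8 to 6, *Tlr4* from 9 to 8, *Tlr2* from 6 to 7 and *Myd88* from 7 to 9. By this length 15 of 20 levels moved by at least their SD. In NSD1B WT *Cd180* went from 7.52 to 12.8 and *Unc93b1* from 14.6 to 19.5 CPM per kilobase. The size of the ratios between genes therefore depends on the length used. The low count of *Tlr9*, 27 to 77 per library, limits its precision.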
